A study of Mus musculus with 12 samples.

Results

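A set of 10 genes that mark blood cells or control their formation were followed through the open chromatin of mouse cells labelled MSCLCs. They are 10 of the 21631 protein-coding genes of the reference table, and they were chosen by peak calls of these same libraries, those of EF against Wt included, in an earlier look at the data. Peaks of all 12 libraries that overlapped by at least 1 bp were merged into 153346 regions, and a region went to the nearest protein-coding gene interval within 100 kb. The 10 genes hold 146 of these regions. A library is said to call a region if one of its peaks overlaps that region. Since the calls chose the genes, every value below is a description and carries no test. At the edge of the 100 kb limit, the outermost region kept lies 94996 bp from Runx1 and was called in EF_IGF1 replicate 2 alone, and the first one left out lies 103972 bp from Runx1 and was called in 9 libraries.

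The assay was ATAC-seq, in which a transposase cuts accessible DNA and leaves sequencing adapters there. The series title speaks of mesenchymal stem cells of bone, the fusion oncogene EWS::FLI1, YAP1 and IGF-1. The genotype label gives 5 groups: Wt (4 libraries), Wt_IGF1 (1), EF (4), EF_IGF1 (2) and EF_IGF1_xeno (1). The labels do not spell out these abbreviations, and the sources used here do not give what drives the EF genotype, the dose or duration of IGF1, or the host of the xeno library. All 12 libraries carry the same cell label. In the titles, the Wt libraries bear the line names WT_1, WT_2, BM and S_203 (replicates 1 to 4), Wt_IGF1 is BM, EF and EF_IGF1 each cover the lines S_220 and S_221, and EF_IGF1_xeno is S_221. Flowcell BSF_0654 held replicates 1 and 2 of Wt and EF, and flowcell BSF_1013 held the remaining 8. The labels do not say that replicates are separate cultures or animals.

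Libraries differ in how much was called, and Wt replicates 1 and 2 stand apart from the rest. Wt replicate 1 has 7748 peaks and Wt_IGF1 has 83718, while Wt replicate 2 has 60526. Over a list of 20 mesenchymal genes with 333 regions, Wt replicate 2 called 21.9% and Wt replicate 1 called 0.601%. Of all regions within 100 kb of a gene they called 41.0% and 5.37%. The other 10 libraries called between 18% and 53.5% of the mesenchymal regions, a range that holds the 21.9%. The lowest of these, EF replicate 2, called 17.6% of all regions near a gene. Of the 10, only EF_IGF1 replicate 1 called a lower share of the mesenchymal regions (37.8%) than of all regions (38.1%). In Wt replicate 2, Col1a2, Cdh11, Lepr, Lum and Ly6a had no called region, and the other 15 genes had at least 1. Among these were Itgav (13 of 18 regions), Nt5e (9 of 20) and Runx2 (22 of 59). At Pdgfra it called 6 of 17, and no other library called more. In Wt replicate 1, 2 of the 333 were called. Where counts of EF against Wt are given, values without these libraries stand beside them.

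Blood cells arise from a common stem cell, and the genes described here act at different steps. RUNX1 is needed for blood stem cells to form, and PU.1, the product of Spi1, and IRF8 then steer progenitors towards macrophages and their relatives. IKAROS, the product of Ikzf1, is a zinc finger factor that is required for lymphocytes. The remaining genes are surface or lysosomal markers of blood cells. By these roles Csf1r, Adgre1, Itgam, Cd68, Spi1 and Irf8 form a macrophage class with 62 regions. Cd3e and Ikzf1 form a lymphoid class with 11, and Ptprc and Runx1, which serve most blood lineages, hold the other 73. Spi1, Irf8 and Ikzf1 also act outside the class they are put in.

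Starts are described first, because the start of an active gene is usually open. RefSeq windows of GRCm38.p6, from 250 bases before to 50 after a transcription start, were matched for 7 of the 10 genes (11 windows), and a peak of Wt replicate 2 overlapped a window of 6 of these 7. Every other library overlapped a window of 2 or 3 of them. Over all genes in that table Wt replicate 2 reached 41.1% and the other libraries 20.1% to 42.4%. The windows of Ptprc (chr1:138175256-138175555, minus strand), Itgam (chr7:128062390-128062689, plus strand) and Ikzf1 (chr11:11685675-11685974, plus strand) were overlapped in Wt replicate 2 and in no other library. The window of Irf8 (chr8:120736108-120736407, plus strand) was overlapped in 7 libraries and that of Cd68 (chr11:69666121-69666420, minus strand) in all 12. These 5 windows are printed to set starts called in 1 library beside starts called in many. Each reads 5′ to 3′ on the strand of the gene, and capitals mark GGAAGT, the core that PU.1 and other ETS factors bind, or its reverse complement.
Ptprc: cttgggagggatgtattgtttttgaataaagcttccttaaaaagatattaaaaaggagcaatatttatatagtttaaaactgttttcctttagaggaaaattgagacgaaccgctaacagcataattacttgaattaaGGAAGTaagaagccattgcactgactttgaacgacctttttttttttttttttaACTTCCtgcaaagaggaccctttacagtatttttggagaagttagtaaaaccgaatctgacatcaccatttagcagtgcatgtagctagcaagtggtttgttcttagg
Itgam: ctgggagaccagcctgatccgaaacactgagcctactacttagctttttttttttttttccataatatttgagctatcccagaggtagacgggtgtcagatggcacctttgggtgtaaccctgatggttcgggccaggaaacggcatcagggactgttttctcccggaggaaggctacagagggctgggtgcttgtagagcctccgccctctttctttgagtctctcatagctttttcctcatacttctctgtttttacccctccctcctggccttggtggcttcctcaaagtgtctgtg
Ikzf1: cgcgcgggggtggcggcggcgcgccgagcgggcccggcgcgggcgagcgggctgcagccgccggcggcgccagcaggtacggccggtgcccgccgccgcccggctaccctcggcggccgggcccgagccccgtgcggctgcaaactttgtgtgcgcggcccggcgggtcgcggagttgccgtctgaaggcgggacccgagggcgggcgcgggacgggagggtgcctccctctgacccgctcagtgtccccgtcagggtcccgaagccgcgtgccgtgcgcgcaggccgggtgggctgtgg
Irf8: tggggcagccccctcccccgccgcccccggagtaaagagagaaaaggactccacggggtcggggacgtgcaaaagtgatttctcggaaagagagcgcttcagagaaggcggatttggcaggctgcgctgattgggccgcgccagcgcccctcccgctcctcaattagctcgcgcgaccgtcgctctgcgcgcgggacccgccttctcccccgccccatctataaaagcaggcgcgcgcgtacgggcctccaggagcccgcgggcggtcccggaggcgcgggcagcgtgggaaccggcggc
Cd68: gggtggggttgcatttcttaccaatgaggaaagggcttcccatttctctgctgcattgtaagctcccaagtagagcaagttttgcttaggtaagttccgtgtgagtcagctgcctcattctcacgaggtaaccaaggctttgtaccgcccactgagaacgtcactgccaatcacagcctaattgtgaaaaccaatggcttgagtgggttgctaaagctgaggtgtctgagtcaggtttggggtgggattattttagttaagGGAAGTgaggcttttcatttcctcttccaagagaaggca
Searched on both strands, GGAAGT occurs 2 times in the Ptprc window, 1 time in the Cd68 window and not in the Itgam, Ikzf1 and Irf8 windows. It occurs in 23.9% of the 32619 windows of the table. The longer form GAGGAAGT, which includes it, is in none of the 11 windows and in 3.22% of all. The letters TGACTCA, bound by AP-1, occur 2 times in the Cd68 window and in 5.22% of all windows, and TGTGGT, bound by RUNX factors, occurs 2 times in a Runx1 window and in 16.6% of all. CpG pairs differ more than these letters do. The Ikzf1 window holds 52 and the Irf8 window 38, while Itgam holds 6 and Ptprc and Cd68 hold 4 each, against a median of 7 over all windows. Over the whole table, windows overlapped in all 12 libraries (15.8%) have a median of 25 CpG pairs and those overlapped in Wt replicate 2 alone (2.20%) a median of 5.

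Over the 10 genes, Wt replicate 2 called 96 of 146 regions (65.8%), against 41% of the 136540 regions near any gene. The other 11 libraries called between 7.53% (Wt replicate 1) and 39.7% (Wt_IGF1), against 5.37% to 52.5% of all regions near a gene. Wt replicate 2 thus ranked 1 of 12 for these genes and 5 of 12 for all genes, but 55 of the 146 regions are in the set through its calls alone. Over the other 91 it ranked 5, and over all regions near a gene that another library called it ranked 10. In Wt replicates 3 and 4 the members' share was 32.9% and 33.6% (all regions, 36.2% and 44.5%). In EF replicates 1 to 4 it was 18.5%, 9.59%, 19.2% and 31.5% (all regions, 32.6%, 17.6%, 33.3% and 43.9%). In EF_IGF1 it was 24.0% and 26.0% (all regions, 38.1% and 41%), and in EF_IGF1_xeno 18.5% (27.9%). Over all 146 regions the members' share was above that of all regions in Wt replicates 1 and 2 and below it in the other 10 libraries. The 55 regions of Wt replicate 2 alone weigh on the shares of the others. Over the 91 it was also above in Wt replicate 3 (52.7%, all such regions 42.8%), Wt replicate 4 (53.8%, 52.6%) and Wt_IGF1 (63.7%, 62.0%). It stayed below in every EF, EF_IGF1 and xeno library. As group means the members stood at 34.9% ± 23.9 in Wt and 19.7% ± 9.01 in EF (SD, n = 4 each), and the ranges overlap. Without Wt replicates 1 and 2 the Wt mean was 33.2% ± 0.484 (n = 2). The 4 EF libraries are 2 lines, each run on both flowcells, with means of 18.8% ± 0.484 for S_220 and 20.5% ± 15.5 for S_221 (n = 2 each). All regions near a gene stood at 31.8% ± 17.9 and 31.9% ± 10.8.

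**Figure D1:**
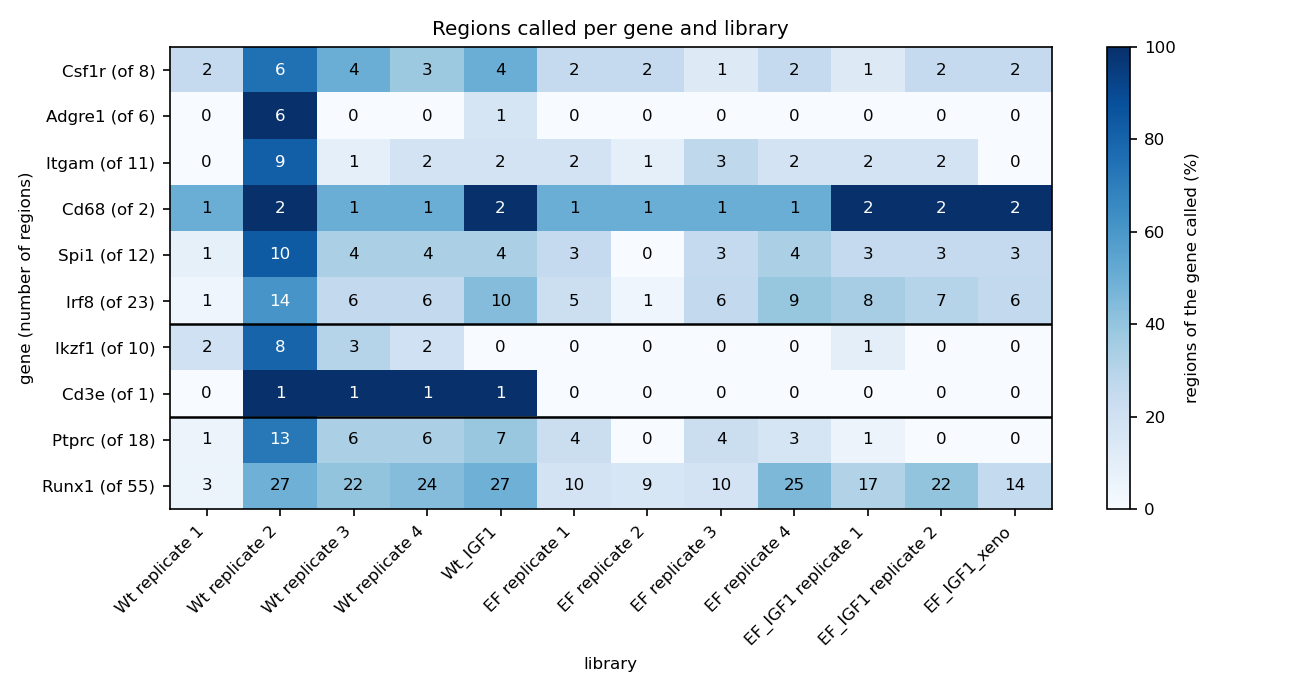
Regions called per gene (rows, with the number of regions of the gene) and library (columns), with the count in each cell and the share of the gene's regions as the colour; black lines part the macrophage, lymphoid and shared classes. The column of Wt replicate 2 is the darkest in most rows, with 6 of 6 regions at Adgre1 and 8 of 10 at Ikzf1, and the EF columns are at 0 in both of those rows.

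In the macrophage class Wt replicate 2 called 47 of 62 regions (75.8%, exact 95% Clopper-Pearson interval 63.3% to 85.8%). Among the other libraries the highest was Wt_IGF1 with 23 (37.1%, 25.2% to 50.3%) and the lowest were Wt replicate 1 and EF replicate 2 with 5 each (8.06%). Of all regions near a gene, Wt replicate 2 called 41.0%, Wt_IGF1 52.5%, Wt replicate 1 5.37% and EF replicate 2 17.6%. Of the 62, 28 are in the class through Wt replicate 2 alone, which raises its share by construction. Over the other 34 it called 19 and Wt_IGF1 23. With the 7723 strongest peaks of each list, Wt replicate 2 called 44.4% of the 9 regions left and the highest other library 11.1 percentage points more. The intervals cover counting of regions only, and neighbouring regions are not independent.

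Csf1r encodes the receptor for the growth factor that keeps macrophages alive, and lies beside Pdgfrb, a receptor gene of mesenchymal cells, on chromosome 18. Of its 8 regions, Wt replicates 1 to 4 called 2, 6, 4 and 3, Wt_IGF1 called 4, EF replicates 1 to 4 called 2, 2, 1 and 2, EF_IGF1 called 1 and 2, and EF_IGF1_xeno called 2. Different kinds of region sit side by side inside the gene. A region of 594 bp, 21615 bp from Pdgfrb, was called in 10 libraries, all but Wt replicates 1 and 2. The next region, 1331 bp wide, and another of 530 bp further into the gene were each called in Wt replicates 1, 2 and 3 and Wt_IGF1 and in no EF, EF_IGF1 or xeno library. The wider one lay in the top 8.40% of the peaks of Wt replicate 2 ranked by −log10 p, with 112 reads at the summit over a local background of 16.8. In Wt_IGF1 the same region was at percentile 4.35 of the list, with 18 reads.

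Adgre1, an adhesion receptor gene used as a surface marker of mouse macrophages, has 6 regions and was the most lopsided of the class. Wt replicate 2 called all 6, Wt_IGF1 called 1, and the other 10 libraries called 0. The region shared with Wt_IGF1 (chr17:57358418-57358859) holds the lower end of the gene. It stood at percentile 84.1 of the list in Wt replicate 2 (59 summit reads) and at 2.09 in Wt_IGF1 (8 reads). The strongest region in Wt replicate 2 (chr17:57346950-57347480) lies 11101 bp outside the gene, had 77 summit reads and was called nowhere else.

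Itgam encodes the alpha chain of an integrin of macrophages and granulocytes. Of its 11 regions, Wt replicates 1 to 4 called 0, 9, 1 and 2, Wt_IGF1 called 2, EF replicates 1 to 4 called 2, 1, 3 and 2, both EF_IGF1 libraries called 2, and EF_IGF1_xeno called 0. The calls outside Wt replicate 2 fall mostly on a pair of regions. One inside the gene (chr7:128089024-128089739) was called in 10 libraries and another 11397 bp outside it (chr7:128050660-128051243) in 7. The start region (chr7:128062554-128062782), which overlaps the window printed above, and 6 others were called in Wt replicate 2 alone.

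Cd68 encodes a lysosomal glycoprotein that is abundant in macrophages, and its 2 regions behave unlike the others of its class. The start region (chr11:69665906-69666551) was called in all 12 libraries, the only one of the 146 with that breadth (0.685%, against 4.2% of all regions near a gene). It lies 385 bp from Eif4a1, a translation factor gene that all cells use, so its calls cannot be assigned to Cd68. Its standing was highest in Wt replicate 2, at percentile 82.2 with 101 summit reads, and between percentiles 11 and 60.9 in the others. The other region (chr11:69663761-69664373), 1112 bp from Mpdu1, was called in Wt replicate 2, Wt_IGF1, both EF_IGF1 libraries and EF_IGF1_xeno.

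Among the factors, Spi1 has 12 regions in and beside a gene of 33386 bp. Wt replicates 1 to 4 called 1, 10, 4 and 4 of them, Wt_IGF1 called 4, EF replicates 1 to 4 called 3, 0, 3 and 4, and both EF_IGF1 libraries and EF_IGF1_xeno called 3. Of the 12, 7 were called in Wt replicate 2 alone, among them a region in the middle of the gene (chr2:91096530-91097360) with 67 summit reads. The region just inside the lower end of the gene (chr2:91082752-91083455) was called in 8 libraries. In Wt replicate 2 it had 96 summit reads over a local background of 20.5. A region further in (chr2:91101333-91101995) ran the other way by list percentile. It was called in 10 libraries, at percentile 23.8 of the list in Wt replicate 2 and between 55.9 and 87.3 in the other 9. Its summit reads were 35 in Wt replicate 2 and 28 to 62 in the other 9. The local background was 9.36 there and 1.34 to 4.36 in the other 9. The last regions of the locus lie towards the muscle gene Mybpc3, one of them 2438 bp from it and called in 9 libraries without Wt replicate 2.

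Irf8 has 23 regions, 17 of them outside the gene, out to 90586 bp. Wt replicates 1 to 4 called 1, 14, 6 and 6, Wt_IGF1 called 10, EF replicates 1 to 4 called 5, 1, 6 and 9, EF_IGF1 called 8 and 7, and EF_IGF1_xeno called 6. The start region (chr8:120735794-120736840) was called in all 4 Wt libraries, Wt_IGF1 and EF replicates 1 and 3. The latter are both line S_220, and no library of line S_221 and no EF_IGF1 library called it. Far downstream, 2 regions were called broadly: chr8:120821436-120822149 in 11 libraries and chr8:120796184-120796708 in 10. The strongest peak of Wt replicate 2 (chr8:120763287-120763616, 53 summit reads) was called there alone, as were 6 other regions.

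In the lymphoid class Wt replicate 2 called 9 of 11 regions (81.8%, 48.2% to 97.7%), and 8 of those 9 belong to Ikzf1. Wt replicates 1, 3 and 4 called 2, 4 and 3. All 4 EF libraries called 0, beside 17.6% to 43.9% of all regions near a gene. The exact interval for 0 of 11 reaches 28.5%. Of the 11 regions, 7 are in the set through 1 library, 6 through Wt replicate 2 and 1 through Wt replicate 4. Such regions hold no EF call by construction, so nothing is read from the 0. Ikzf1 alone had 10 regions, of which Wt replicates 1 to 4 called 2, 8, 3 and 2 and EF_IGF1 replicate 1 called 1. Wt_IGF1, the 4 EF libraries, EF_IGF1 replicate 2 and EF_IGF1_xeno called 0. A pair of regions inside the gene (chr11:11730078-11730620 and chr11:11763079-11763774) was shared by Wt replicates 1, 2 and 3. The former was in the top 2.35% of the list in Wt replicate 2, with 82 summit reads, and had 21 in Wt replicate 1, at percentile 55.3. Both start windows of Ikzf1 were overlapped in Wt replicate 2 only.

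Cd3e, a chain of the T cell receptor complex, differs from Ikzf1. Its single region (chr9:45022870-45023198) lies 13207 bp outside the gene and was called in Wt replicates 2, 3 and 4 and Wt_IGF1. It was weak in Wt replicate 2, at percentile 5.85 with 12 summit reads, and stood at 42.3 in Wt replicate 4. The start window of Cd3e was overlapped in no library. Of the lymphoid class, then, the transcription factor had calls in and around its gene in Wt replicate 2 and the T cell marker had none within its gene.

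**Figure D2:**
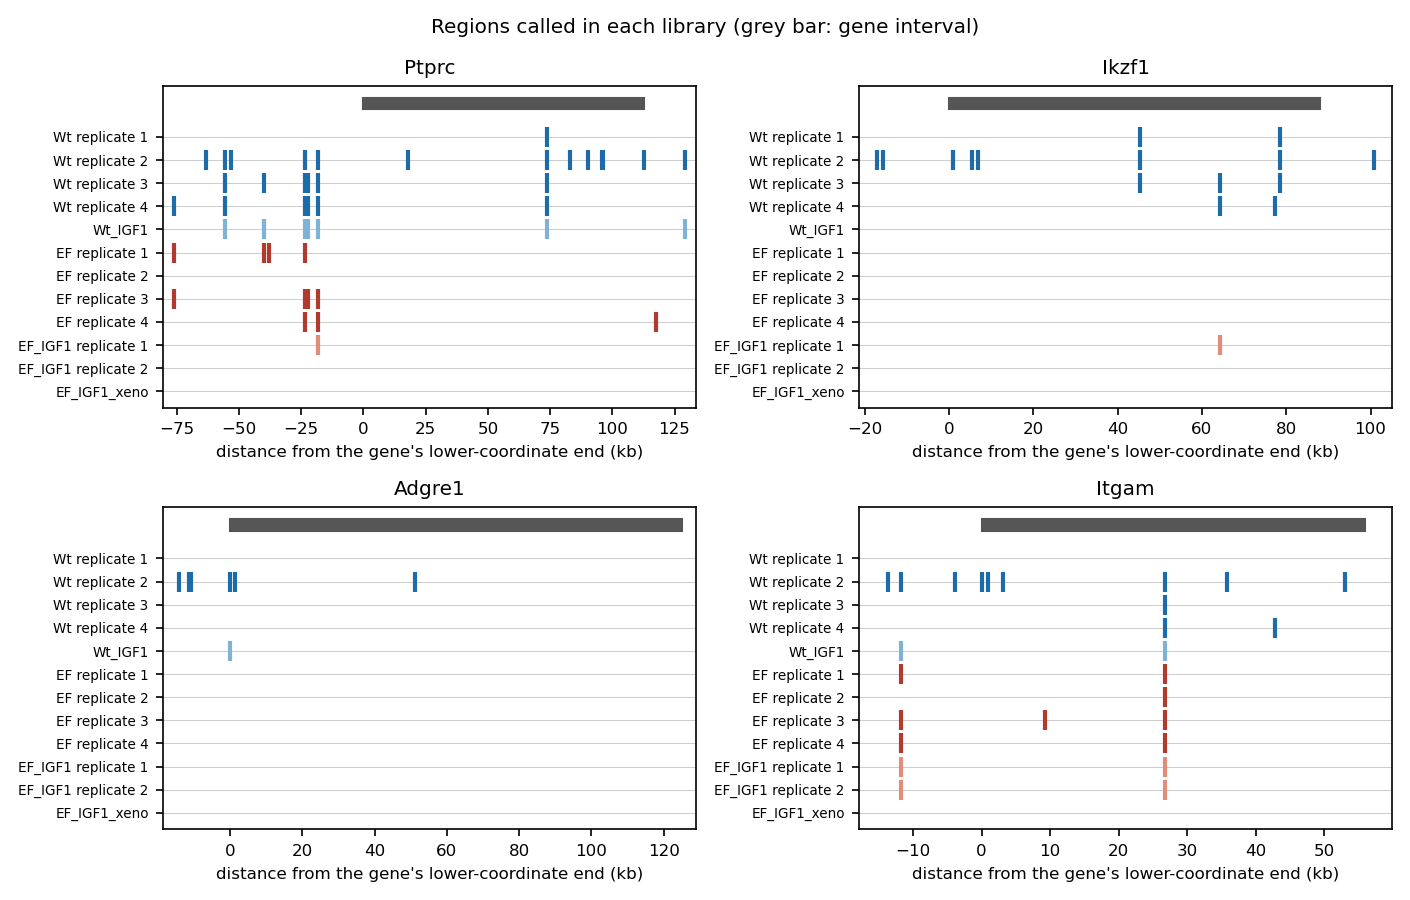
Regions called at 4 genes, drawn as ticks at their distance in kb from the lower-coordinate end of the gene (grey bar) for each of the 12 libraries. Ticks are dark blue for Wt, light blue for Wt_IGF1, dark red for EF and light red for EF_IGF1. EF_IGF1_xeno called no region at these genes and has no tick. Wt replicate 2 has ticks where no other library has one at each of the 4 genes, and at Adgre1 the only other tick is that of Wt_IGF1.

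Ptprc encodes a tyrosine phosphatase on the surface of all white blood cells. Of its 18 regions, Wt replicates 1 to 4 called 1, 13, 6 and 6, Wt_IGF1 called 7, EF replicates 1 to 4 called 4, 0, 4 and 3, EF_IGF1 called 1 and 0, and EF_IGF1_xeno called 0. Inside the gene there are 7 regions, and all 7 were called in Wt replicate 2. Of these, 6 were called nowhere else, the start region (chr1:138175090-138175814, 53 summit reads) included. The remaining one, chr1:138136265-138136825, was called in all 4 Wt libraries and in Wt_IGF1 and in no EF, EF_IGF1 or xeno library. It was the strongest member peak of Wt replicate 2 (top 2.09% of its list, 89 summit reads), and had 22, 11 and 16 summit reads in Wt replicates 1, 3 and 4 and 33 in Wt_IGF1. The calls of the EF libraries at Ptprc all lie outside the gene.

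Runx1 has 55 regions, the most of the 10 genes, and is also a factor of bone and cartilage cells. Wt replicates 1 to 4 called 3, 27, 22 and 24, Wt_IGF1 called 27, EF replicates 1 to 4 called 10, 9, 10 and 25, EF_IGF1 called 17 and 22, and EF_IGF1_xeno called 14. Here Wt replicate 2 was not above Wt_IGF1. Its 2 start windows were overlapped in 9 libraries (start at base 92826074 of chromosome 16) and 11 libraries (start at base 92697329), and a region inside the gene (chr16:92620523-92621736) was among the top peaks of 11 lists, at percentiles between 84.8 and 97.1. Still, 13 regions were called in Wt replicate 2 alone. Without Runx1, Wt replicate 2 called 75.8% of the remaining 91 regions and the next library, Wt_IGF1, 34.1% (all regions, 41.0% and 52.5%). Of these 91, 42 were called in Wt replicate 2 alone. Over the other 49, Wt replicate 2 called 27 and Wt_IGF1 31.

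**Figure D3:**
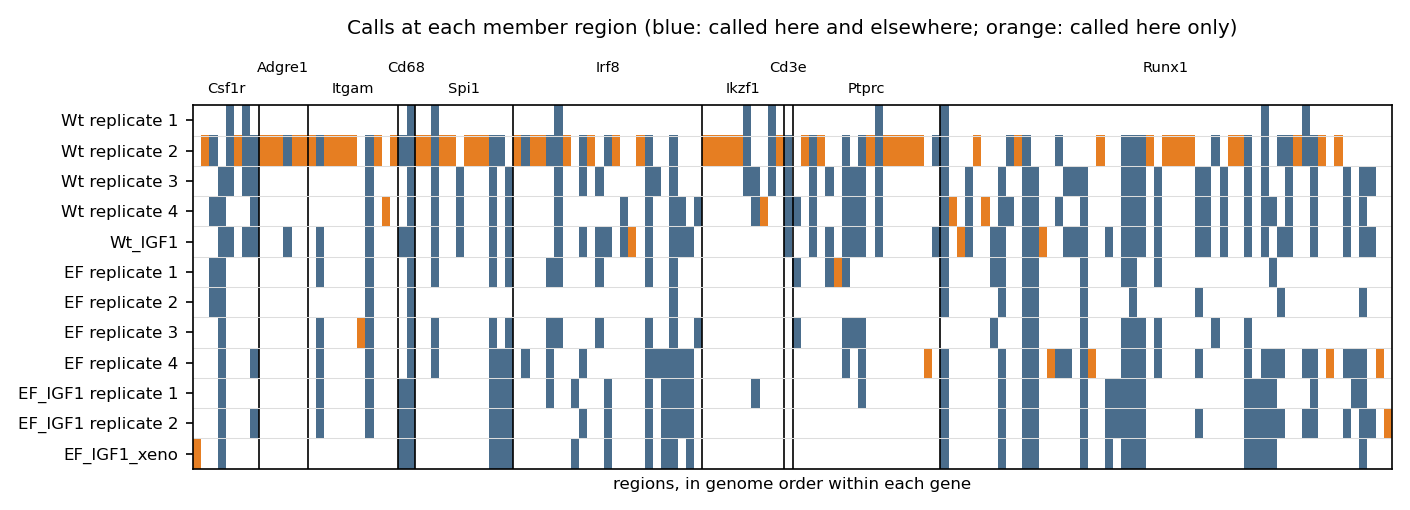
Calls at each of the 146 regions (columns, in genome order within each gene) in each library (rows), blue where another library also called the region and orange where none did. Orange fills much of the row of Wt replicate 2 at Adgre1, Itgam, Spi1, Ikzf1 and Ptprc, and is thin in every other row.

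Regions called in Wt replicate 2 and in no other library numbered 55 of 146 (37.7%, against 15.3% of all regions near a gene). By gene these were 8 at Ptprc, 2 at Csf1r, 6 at Ikzf1, 7 each at Spi1, Itgam and Irf8, 5 at Adgre1 and 13 at Runx1. Cd3e and Cd68 had none. The macrophage class held 28 (45.2% of its regions), the lymphoid class 6 (54.5%) and the shared genes 21 (28.8%). Their peaks were of ordinary strength, since 23 of the 55 lay above the median of the list, and their summits had 13 to 89 reads (median 34). Regions that Wt replicate 2 shared with another library stood higher, with 30 of 41 above the median and a median of 59 reads. No other library had more than 5 such regions.

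A library's own calls help to make the regions, which favours the library with the most calls of its own. Among the 91 regions that another library called, Wt replicate 2 called 41 (45.1%), against 30.3% for all such regions. On these same 91 regions Wt_IGF1 called 58 (63.7%, all such regions 62.0%), Wt replicate 4 called 49 (53.8%, 52.6%), Wt replicate 3 called 48 (52.7%, 42.8%) and EF replicate 4 called 46 (50.5%, 51.9%), so 4 libraries stood above Wt replicate 2. That choice of regions leaves out the calls of Wt replicate 2 alone and keeps those of any other library alone. On the 75 regions called in 2 or more libraries, Wt replicate 2 called 41 (54.7%, against 39.9% of all such regions), below Wt_IGF1 (73.3%, 73.9%), Wt replicate 3 (64%, 55.1%) and Wt replicate 4 (60%, 64.4%). For the macrophage class of the 91 regions it called 19 of 34 (55.9%), next to 23 in Wt_IGF1 (67.6%) and 18 in EF replicate 4. For the lymphoid class it called 3 of 5 and for the shared genes 19 of 52 (36.5%). The lead of Wt replicate 2 over the 146 regions is thus a lead in regions that it alone called. Seen from the other side, the 11 regions of Wt replicate 1 were all called in Wt replicate 2 too, but so were 99.5% of all its regions. EF replicate 1, run on the same flowcell, called 15.6% of the 96 member regions of Wt replicate 2, against 39.6% of all regions of that library. Regions of Wt replicate 2 alone, 55 of the 96 and 20945 of all 55992, can hold no such call, which widens the gap by construction. Of the regions that Wt replicate 2 shared with another library, EF replicate 1 called 15 of 41 at the members and 22163 of 35047 near any gene.

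**Figure D4:**
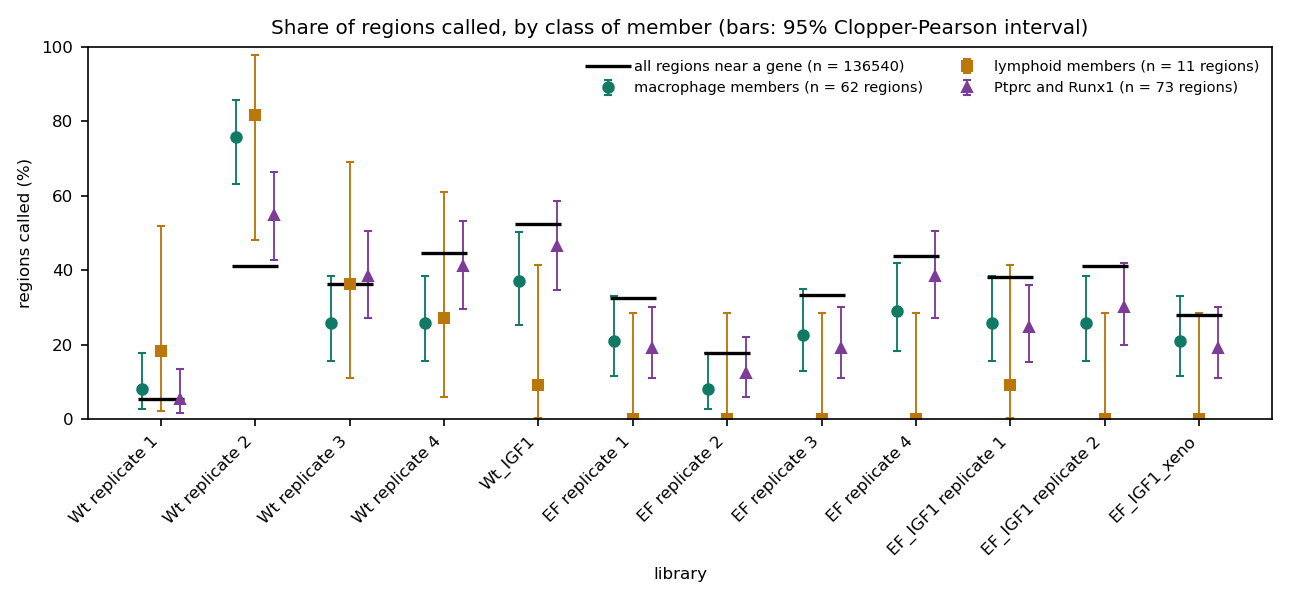
Share of regions called in each library (percent) for the macrophage class, the lymphoid class and the pair Ptprc and Runx1, with exact 95% Clopper-Pearson intervals over regions as bars; the horizontal line is the share over all 136540 regions near a gene. In Wt replicate 2 the macrophage and lymphoid points are at 75.8% and 81.8% with the line at 41.0%, and in the EF libraries the lymphoid points are at 0. Of the 62 macrophage and 11 lymphoid regions, 28 and 6 were called in Wt replicate 2 alone.

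In EF against Wt, gained regions are those called in 3 or 4 of the 4 EF libraries and in none of the 4 Wt libraries, and lost regions the converse. None of the 146 was gained (1.15% of all regions near a gene were) and 8 were lost (5.48%, background 0.978%). This contrast was in view when the genes were chosen, so nothing is read from the difference. The 8 are 2 each at Ptprc, Csf1r and Ikzf1 and 1 each at Cd3e and Runx1. All 8 were called in Wt replicates 2 and 3, 5 in Wt replicate 1, 4 in Wt replicate 4 and 6 in Wt_IGF1, and none in an EF, EF_IGF1 or xeno library. Leaving out a Wt library makes the rule 3 of 3 and lowers the count by construction: it was then 1 without Wt replicate 2, 1 without Wt replicate 3, 4 without Wt replicate 1 and 5 without Wt replicate 4. With 2 of the 3 Wt libraries left enough, it was 13, 9, 14 and 8 in the same order. With the 7723 or the 20000 strongest peaks of each list it was 0. Within flowcell BSF_1013 it was 9 (background 4.4%) with 2 gained (1.89%), and within BSF_0654 it was 7 (0.516%) with 4 gained (4.06%). The Wt side is replicates 3 and 4 within BSF_1013 and replicates 1 and 2, the libraries that stand apart, within BSF_0654. Of the 9 lost there, 4 are at Runx1, 2 at Ptprc and 1 each at Spi1, Ikzf1 and Cd3e.

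In the other direction, 14 regions (9.59%, background 21%) were called in an EF, EF_IGF1 or xeno library and in no Wt or Wt_IGF1 library. Runx1 held 8 of them, Ptprc and Irf8 2 each, and Csf1r and Itgam 1 each. By contrast, 76 regions (52.1%, background 27.9%) were called in at least 1 Wt library and in no EF, EF_IGF1 or xeno library, and 55 of the 76 are the regions of Wt replicate 2 alone. With at least 2 Wt libraries required the number was 13 (8.90%, background 4.46%). With only the calls of Wt replicates 3 and 4 on the Wt side, the same 146 regions were counted again. In 1 or both of them, and in no EF, EF_IGF1 or xeno library, 19 regions were called (13%, all regions 11.6%). In both, 8 were (5.48%, all regions 2.97%). The 146 still hold the 55 regions of Wt replicate 2 alone (37.7%, all regions 15.3%), which cannot be counted here. They lower the members' shares more than the background.

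IGF1 libraries were set beside those without it. Between EF_IGF1 and EF on flowcell BSF_1013, with 2 of 2 libraries against 0 of 2, 5 regions were gained (3.42%, background 2.66%) and 3 lost (2.05%, background 2.07%). These are the regions that moved in both lines, and within 1 line the counts were larger: 18 gained and 11 lost in S_220, 7 gained and 15 lost in S_221. Leaving out 1 library gave up to 15 gained and 12 lost, and the 7723 strongest peaks of each list gave 0 of either. The gained regions are 3 at Runx1 and 1 each at Irf8 (chr8:120759782-120760531) and Cd68, and the lost ones 1 each at Ptprc, Spi1 and Runx1. One of the Runx1 regions, centred 874 bp into the transcript from its upper start (chr16:92824854-92825546), was called in both EF_IGF1 libraries and EF_IGF1_xeno and nowhere else. A second Irf8 region (chr8:120816254-120816740) is not among the gained, since EF replicate 4 called it beside these 3 libraries. Of the 146 regions, these 2 were called in all 3 of these libraries and in no Wt or Wt_IGF1 library (1.37%, background 2.48%). Wt_IGF1, a single library, called 12 regions that Wt replicates 3 and 4 did not (8.22%, background 10.3%) and missed 1 that both called (background 0.639%), at Ikzf1. EF_IGF1_xeno called 1 region that neither EF_IGF1 library did (background 0.784%), at Csf1r, and missed 5 that both called (3.42%, background 7.05%), of which 2 were at Itgam and 2 at Runx1. Over all 146 regions each of these shares lies within 1.5 times of its background or below it. Of the 146, 55 (37.7%, background 15.3%) were called in Wt replicate 2 alone and can be neither gained nor lost here. That lowers the members' shares more than the background, so nothing is read from the likeness.

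Other blood genes were read from lists that hold none of the 10, and Wt replicate 2 stood apart over some of them. Wt replicate 2 called 41.0% of all regions near a gene. Of 215 regions of 26 macrophage and monocyte genes it called 66.0% and the other libraries 6.98% to 36.3%. Of the 26 genes, 21 had most calls in Wt replicate 2. Mrc1, the mannose receptor gene, had 11 of 17 regions called there and at most 5 elsewhere. Marco, a scavenger receptor gene of macrophages, had 10 of 13 and at most 4. Of 160 regions of 15 genes shared by blood lineages it called 73.8%, the others 3.75% to 31.3%, and 14 of the 15 genes had most calls there. Lcp1, an actin-bundling protein of white blood cells, had 14 regions, all called in Wt replicate 2 and none in any other library. Starts were overlapped for 14 of 17 macrophage and monocyte genes and 12 of 12 shared blood genes in Wt replicate 2, against 0 to 4 and 0 to 3 elsewhere. Over all genes with a start window the share was 41.1% in Wt replicate 2 and 20.1% to 42.4% elsewhere. Its own calls made part of these sets. Of the 215 regions 81 (37.7%), and of the 160 regions 82 (51.25%), were called in Wt replicate 2 alone, against 15.3% of all regions near a gene. Over regions that another library called, its shares were 45.5% for the macrophage and monocyte genes and 46.2% for the shared blood genes, against 30.3% for all such regions.

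Lists of lymphocyte genes did not follow. For 15 T and NK cell genes Wt replicate 2 called 28.1% of 96 regions, in the middle of the other libraries (1.04% to 58.3%), and 1 gene of 15, Cd4, had most calls there. For 12 B cell genes it called 37.1% of 70 (others 5.71% to 48.6%). Ms4a1 and Blnk had most calls in Wt replicate 2, Ms4a1 with 6 of 6 regions that were called there alone. Granulocyte and mast cell genes were at 36.1% (0% to 47.2%) and endothelial genes at 35.5% (0% to 47.3%). Osteoclast genes were at 52.3%, beside 50.0% in Wt_IGF1, and erythroid and megakaryocyte genes at 61.2%, beside 49.0%. Of the 20 mesenchymal genes, 0 had most calls in Wt replicate 2. These lists stand beside the members as measured values, and the part of other cell types in the calls of Wt replicate 2 was not tested. In bulk libraries a larger number of cells of a type and more open DNA per cell cannot be told apart, and the line WT_2 and its library cannot be told apart either.

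**Figure D5:**
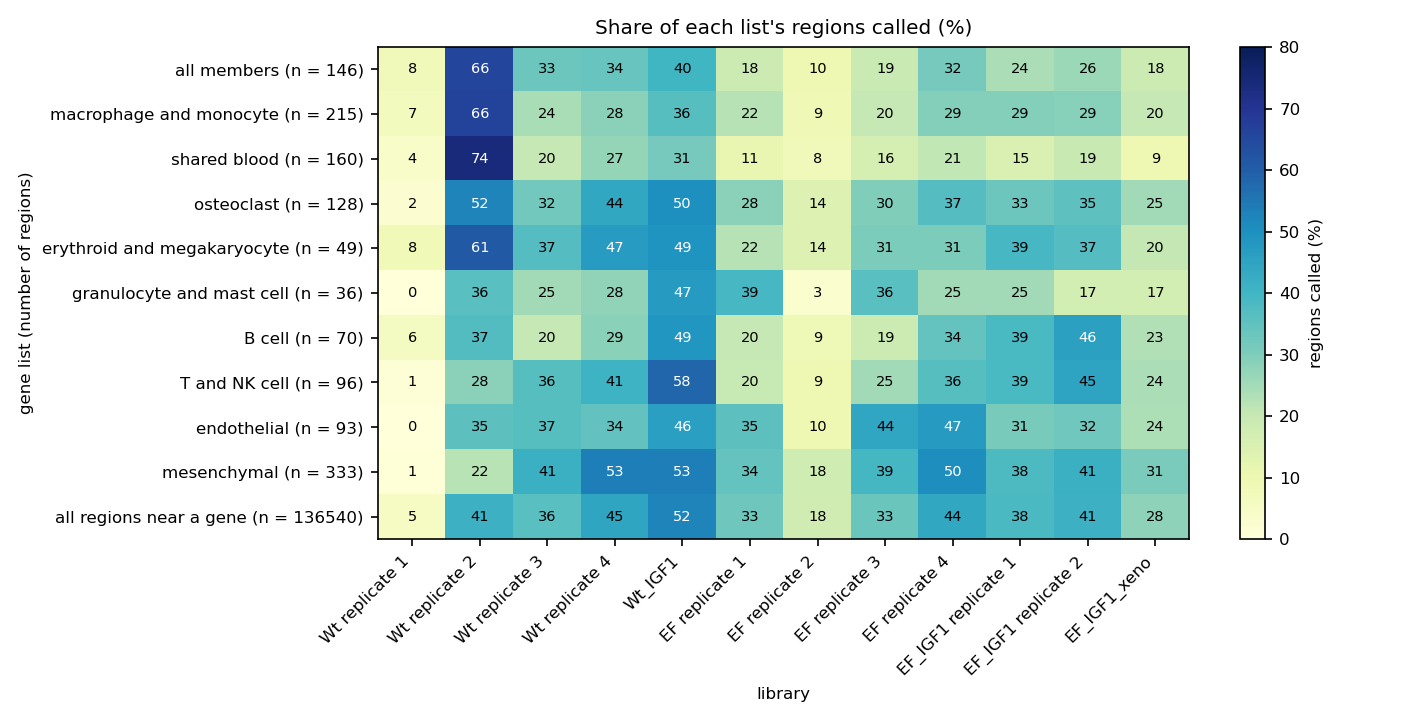
Share of regions called (percent, number and colour) for the 146 member regions, 9 gene lists and all regions near a gene (rows) in each library (columns). In the column of Wt replicate 2 the macrophage and shared blood rows are at 66% and 74% and the mesenchymal row at 22%, and Wt_IGF1 shows 36%, 31% and 53% in the same rows.

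Across the 12 libraries, each member's share of regions called was set beside the share over the other 9 members. Pearson's r was 0.94 for Spi1, 0.88 for Irf8, 0.83 for Ptprc and 0.82 for Csf1r, and lowest for Runx1 (0.67) and Cd68 (0.41). The libraries share their depth of calling across genes, so these are descriptions over 12 points. Of 5679 genes with at least 8 regions, outside the members, the 10 most like the members' summed share were Rbm47, Pip4k2a, Pik3r1, Rragc, Blm, Cacna1d, Tbc1d2b, Actr3, Plekha1 and 4930562C15Rik, with r from 0.97 to 0.98. Rbm47 had 29 of 35 regions called in Wt replicate 2 (82.9%) and at most 48.6% elsewhere. Among these 5679 genes 1107 (19.5%) had most calls in Wt replicate 2. Of the 7 members with at least 8 regions 6 did.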

How the data were processed

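Peak lists of 12 ATAC-seq libraries were analysed. Per the labels' protocols, the transposase TDE1 acted on cells lysed by digitonin, and single-end reads were taken. The submitters' processing notes name MACS2 and the build GRCm38.p3. The sources used here do not give the aligner, read filters, read shift, caller options or control. The authors called peaks on each library separately. Each deposited peak has a position, a score, a fold enrichment over background (a linear ratio) and −log10 values of its p-value and q-value. These deposited values served only to rank or filter within a list.

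Peaks on chromosomes 1 to 19 and X were merged into regions (between 23 and 43 of a library's peaks lie elsewhere and were dropped), and each region went to the nearest of 21631 protein-coding intervals of RefSeq GRCm38.p6. Summit reads were solved from the fold, taken as (reads + 1) over (background + 1), and the Poisson p-value. They came out as 1 whole number within 0.01 of the −log10 p for 472 of 477 member peaks (99.0%). Without read totals the depth is unknown, and the number of peaks stands for it. The steps were tested on simulated data. Python 3.11.15, pandas 2.3.3, numpy 2.4.6 and scipy 1.17.1 were used.

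The members and lists were chosen with earlier results of these data known. All 10 members are named, with the regions strongest in Wt replicate 2, nearest the start and called most widely; 3 genes per list are those with most regions called in Wt replicate 2, and other genes named from a list were chosen after their values were seen. Spi1, Csf1r and Adgre1 have no start window in the RefSeq table used. Alternatives were stricter peaks (−log10 q of 5 or more), equal numbers of peaks, summit windows reaching 250 bp to either side, other gene distances, left-out libraries, single flowcells and, chosen after seeing the data, the same regions for every library, single lines and pairing by line.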

Additional observations from a re-analysis of the deposited data

Results flagged for a closer look

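Within groups of 4 libraries, 1 library stood far from the other 3 in 7 of 41 comparisons. About 1 in 20 groups of continuous values is singled out by chance, but that rate does not hold for small counts. The comparisons also share libraries, so the flags are a description. Wt replicate 2 was the high one at Ikzf1 (8 regions called, the others 2 or 3), Adgre1 (6, the others 0) and Cd68 (2, the others 1). Wt replicate 1, the library with the fewest peaks, was the low one at Cd3e (0, the others 1) and over the endothelial list (0% of 93 regions, the others 34.4% to 36.6%). In EF, replicate 4 was high at Runx1 (25 regions, the others 9 or 10) and replicate 3 low at Csf1r (1, the others 2). At Cd68, Cd3e and Csf1r the gap is a single region. At these genes and at Adgre1 the other 3 libraries tie, and any such tie is flagged. Besides, 5 of the 6 regions of Adgre1 and 6 of the 10 of Ikzf1 are in the set through Wt replicate 2 alone.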

How the results depend on the processing

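Wt replicate 2 led all other libraries over the member regions in 15 of 17 alternatives that gave this value, with a difference from -18.7 to 47.5 percentage points (26.0 as reported). It did not lead where every library was set over the same regions and those of Wt replicate 2 alone were left out (chosen after seeing the data). On regions called outside Wt replicate 2 its share was 45.1% for the members, 55.9% for the macrophage class and 60% for the lymphoid class, with differences of -18.7, -11.8 and -20. On regions called in 2 or more libraries the shares were 54.7%, 63.3% and 75%, with differences of -18.7, -10 and -25. With the 7723 strongest peaks of every library its share was 52.2% and its lead 4.35 for the members. For the macrophage class the share was then 44.4% of 9 regions and the lead turned to -11.1, for the lymphoid class 100% and 0. Lost regions in EF fell to 0, and IGF1 gave 0 gained and 0 lost. The lists stood at 51.4% (macrophage and monocyte), 27.8% (osteoclast), 0% (granulocyte and mast cell), 22.2% (erythroid and megakaryocyte), 47.4% (shared blood) and 13% (mesenchymal). With the 20000 strongest peaks the lead was 47.5 for the members and 51.9 for the macrophage class, the lymphoid share 100%, lost regions 0, IGF1 2 gained and 0 lost, the T and NK cell list 19% and the mesenchymal list 14.5%. With each library over the regions that any other library called, a different set for each, the members stood at 45.1% (lead 6.59), the macrophage class at 55.9% (lead 19.8), and the lists at 45.5% (macrophage and monocyte), 37.1% (osteoclast), 46.2% (shared blood), 16.1% (mesenchymal) and 25.0% (endothelial). Within 10 kb of a gene 5 regions were lost in EF and the macrophage and monocyte list stood at 74.3%. Inside genes 5 were lost, with 73.2% (macrophage and monocyte), 14.3% (granulocyte and mast cell), 80.6% (shared blood) and 29.0% (mesenchymal). Leaving out 1 library at a time (3 of the 3 left required in its group), 1 to 11 regions were lost and 0 to 2 gained in EF, and with IGF1 5 to 15 gained and 3 to 12 lost. With 2 of the 3 libraries left enough, chosen after seeing the data, EF gave 8 to 14 lost and 0 to 2 gained. Single flowcells gave 2 and 4 gained in EF, line S_221 alone 15 lost with IGF1, and line S_220 alone 18 gained and 11 lost (chosen after seeing the data). Without Runx1, chosen after seeing the data, the members stood at 75.8% (lead 41.8) with 46.2% called in Wt replicate 2 alone. Stricter peaks and summit windows moved none of the 63 values past their spread. The cause was not tested. The replicate numbers pair nothing, but on flowcell BSF_1013 the line names pair EF with EF_IGF1; the replicate block by line gave the same 5 gained and 3 lost, since the rule asks for both lines. Wt and EF share no line, and no paired analysis was possible for them. Read depth is unknown, so a region without a call is not shown to be closed.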
